A study of Danio rerio with 6 samples.

Results

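The vertebrate eye is laid out by a small network of homeodomain transcription factors that are switched on together in the anterior neural plate, the eye field, and are used again in the retina as its cells divide and differentiate. The 9 genes described here are the zebrafish retinal homeobox genes *rx1*, *rx2* and *rx3*, the visual system homeobox gene *vsx1*, the sine oculis homologs *six3a*, *six3b* and *six6a*, and the paired box genes *pax6a* and *pax6b*. They were taken by symbol from the larger deposited table, which held all 9 among 21769 genes. The members were measured in 36 hpf (hours post fertilization) embryos of the AB strain, in 3 libraries of WT siblings and 3 libraries of embryos whose genotype is given as dhx38-- or dhx38-/-. *dhx38* encodes an RNA helicase of the spliceosome, and the labels give no allele and no number of embryos per library. The source label names the tissue as tail and the extraction protocol names the trunk, with 2 sequencing providers that are not tied to single libraries. Since separate clutches are not stated, each p-value speaks to the spread among these 6 libraries alone.

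Several of these genes also have known places of use outside the eye, which matters in libraries labelled tail or trunk. In zebrafish *rx3* is required for the optic vesicles to form and is also used in the hypothalamus, and *six3a*, *six3b* and *six6a* belong to the forebrain and eye. *vsx1* marks retinal progenitors and bipolar interneurons and is also used in a class of spinal interneurons. *pax6a* and *pax6b* are the broadest, with roles in retina, lens, forebrain, hindbrain and spinal cord, and *pax6b* also in the endocrine pancreas. In bulk RNA, fewer cells of a type and less RNA per cell cannot be told apart.

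The deposited table places the genes on chromosomes of GRCz11, the build named in the submitters' processing notes. *rx1* (ENSDARG00000071684) is on chromosome 22, *rx2* (ENSDARG00000040321) on chromosome 2 and *rx3* (ENSDARG00000052893) on chromosome 21. *vsx1* (ENSDARG00000056292) is on chromosome 17 and *six3b* (ENSDARG00000054879) on chromosome 12. *six3a* (ENSDARG00000058008) and *six6a* (ENSDARG00000025187) are both on chromosome 13, on opposite strands, while *pax6a* (ENSDARG00000103379) is on chromosome 25 and *pax6b* (ENSDARG00000045936) on chromosome 7.

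All 9 genes were detected in all 6 libraries, whose depth was 19.5 to 37.7 M reads as recovered from the steps of the deposited values. The lowest member level, 1.47 for *rx2* in mutant replicate 2, stood on about 57 reads, and *rx2*, *rx3* and *six6a* stood on 47 to 257 reads per library. Values are normalized CPM, a library-scaled read count, and levels are not compared between genes since no gene lengths of the files' build were used. Mutant and sibling were compared with limma on log2(normalized CPM + 1) over all 21769 genes, with a Benjamini-Hochberg adjusted p of 0.05 as the threshold. *dhx38* itself was at 33.77, 33.77 and 27.26 in siblings and at 57.24, 90.38 and 53.11 in mutants, which does not check the genotype because the mutation is not stated.

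Markers of several body regions were measured to check the tissue labels. The telencephalon gene *foxg1a* was at 31.35, 30.91 and 27.41 in siblings, the lens crystallin gene *crybb1* at 546.06, 501.71 and 361.69, and the posterior gene *hoxc13a* at 8.89, 11.56 and 16.51. The fast muscle gene *mylpfa* was at 4864.17, 4482.57 and 4578.47. Markers of telencephalon, lens, muscle and posterior body were thus all present in siblings, although the labels name tail and trunk only.

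The 9 factors did not behave alike in the mutants. *vsx1* and *rx2* stood at 42.4% and 39.98% of their sibling means, while *six3b*, *six6a*, *pax6a* and *pax6b* stood at 89.8% to 112% of theirs. Of the remaining genes *rx3* stood at 77.2%, *six3a* at 81.8% and *rx1* at 133% of the sibling mean. With limma 0 of 9 passed the adjusted threshold, which 1.70% of all genes passed (0.285% lower and 1.41% higher). At an unadjusted p under 0.05, 2 of 9 were lower, *rx2* and *vsx1*, and 0 higher, against 10.7% of all genes lower and 10.2% higher. Of the 9 log2 fold changes 7 were negative, against 50.8% of all genes, and the median of the 9 was -0.15, against -0.01 over all genes. Among the 7 was *six6a* at -0.0047, a sign kept in 10 of 16 alternative settings. A negative median was not particular to these 9 genes. Among the lists outside the eye described below it was -0.58 for neural progenitors and neurons and -0.29 for skeletal muscle. It was -0.22 for forebrain and hypothalamus, -0.19 for midbrain and hindbrain, -0.18 for spinal cord, -0.13 for tail and 0.03 for islet genes.

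**Figure D1:**
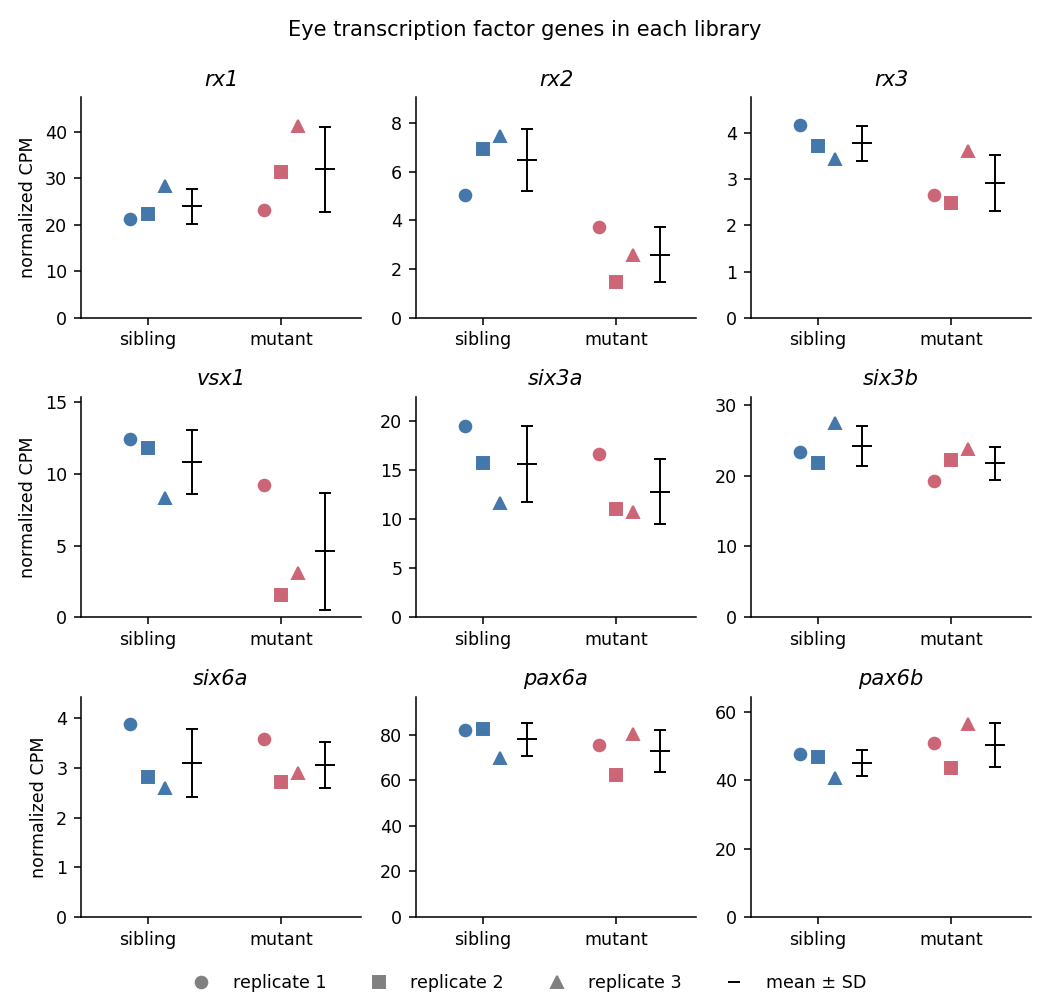
Normalized CPM of each of the 9 eye transcription factor genes (vertical axes, one panel per gene, starting at 0) in sibling and mutant libraries, with symbols for the replicate number and the mean ± SD at the right of each group (n = 3). The 3 mutant values lie below the 3 sibling values in the *rx2* panel, mutant replicates 2 and 3 lie lowest for *vsx1*, and the groups overlap for the other genes.

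The log2 fold changes of the retinal homeobox genes differed in sign, with intervals that included 0 for *rx1* and *rx3*. *rx2*, a gene of retinal progenitors and of the retinal stem cell niche, was at 5.04, 6.94 and 7.48 normalized CPM in sibling replicates 1, 2 and 3 and at 3.74, 1.47 and 2.57 in mutant replicates 1, 2 and 3. It was the 1 member of 9 with all mutants outside the sibling range. Over all genes 27.1% had groups apart, 13.8% with mutants lower and 13.3% with mutants higher. The nearest libraries, sibling replicate 1 and mutant replicate 1, had overlapping 95% Poisson counting intervals, 4.32 to 5.84 and 3.12 to 4.44. The log2 fold change was -1.09 (SE 0.25, 95% interval -1.67 to -0.52), which missed the threshold (limma adjusted p = 0.0716). With the replicate number as a block, a fit in which 13.7% of all genes passed, *rx2* passed (limma adjusted p = 0.0187). A pseudocount of 0.1 added to the block ended that call (limma adjusted p = 0.108).

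*rx1*, its close relative, was at 21.30, 22.40 and 28.35 in siblings and at 23.12, 31.36 and 41.31 in mutants. Replicate 3 was the highest library of both groups, and mutant replicate 1 lay within the sibling range. The log2 fold change was 0.37 (SE 0.22, 95% interval -0.14 to 0.88, limma adjusted p = 0.385). It was 0.17 without mutant replicate 3 and 0.58 without mutant replicate 1. *rx3*, the factor of optic vesicle formation, was at 4.17, 3.73 and 3.43 in siblings and at 2.66, 2.48 and 3.61 in mutants. Mutant replicates 1 and 2 were below all siblings, and mutant replicate 3 was among them (log2 fold change -0.29, 95% interval -0.66 to 0.07, limma adjusted p = 0.330).

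The balance between *rx1* and *rx2* was also compared. The *rx1* to *rx2* ratio was 4.23, 3.23 and 3.79 in siblings and 6.18, 21.3 and 16.1 in mutants. The groups did not overlap, and the mean log2 ratio differed by 1.79. In reads, *rx2* made up 19.1%, 23.7% and 20.9% of the *rx1* and *rx2* reads in siblings and 13.9%, 4.49% and 5.85% in mutants. The exact 95% binomial interval was 16.6% to 21.8% in sibling replicate 1, the lowest sibling, and 11.7% to 16.3% in mutant replicate 1, the highest mutant. The summed level of *rx1*, *rx2* and *rx3* was 30.51, 33.07 and 39.26 in siblings and 29.52, 35.31 and 47.49 in mutants. The sums overlapped, and the highest was in mutant replicate 3.

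*vsx1*, the retinal progenitor and bipolar cell factor, had the largest log2 fold change of the 9 on the log2(normalized CPM + 1) scale, although by the ratio of means *rx2* was further from its siblings. It also had the largest spread between mutants relative to the mean, a coefficient of variation of 88.1%. It was at 12.44, 11.83 and 8.31 in siblings and at 9.22, 1.55 and 3.06 in mutants. Mutant replicate 1 lay within the sibling range, above sibling replicate 3, while mutant replicates 2 and 3 were at 14.3% and 28.2% of the sibling mean. These low values were beyond counting error, with Poisson intervals of 1.18 to 2.0 in mutant replicate 2 and 2.31 to 3.97 in mutant replicate 3, against 7.07 to 9.70 in sibling replicate 3.

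The log2 fold change of *vsx1* was -1.31 (SE 0.45, 95% interval -2.33 to -0.28), which missed the threshold (limma adjusted p = 0.154). With the replicate block *vsx1* passed (limma adjusted p = 0.0241), as it did when mutant replicate 1 was left out (-1.86, limma adjusted p = 0.0125). *rx2* also passed without that library (-1.32, limma adjusted p = 0.0228). In that setting 1731 of all 21769 genes passed, against 370 with all libraries. Mutant replicate 1 was the mutant library nearest to the siblings for both genes. *vsx1* too missed the threshold when the smaller pseudocount was combined with the block (limma adjusted p = 0.126). Without mutant replicate 2 its log2 fold change was -0.86 (limma adjusted p = 0.441). *vsx1* was also the 1 of 9 members in the authors' deposited shorter table of 956 genes, which holds 4.39% of all genes and whose criterion no source used here states.

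Within same-number pairs of libraries *vsx1*, *rx2* and *six3a* were lower in the mutant in 3 of 3 pairs. The log2 difference of *vsx1* was -0.40, -2.33 and -1.20 in pairs 1, 2 and 3. That of *rx2* was -0.35, -1.68 and -1.25. Pair 1 showed the smallest difference for *vsx1* and *rx2*, whereas *six3a*, at -0.22, -0.48 and -0.11, was least different in pair 3 and did not pass with the block (limma adjusted p = 0.210). *rx1* was higher in 3 of 3 pairs, by 0.11, 0.47 and 0.53, and did not pass with the block (limma adjusted p = 0.109). The share of all genes with the same direction in 3 of 3 pairs was not computed. What a replicate number marks is not stated in the labels.

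**Figure D2:**
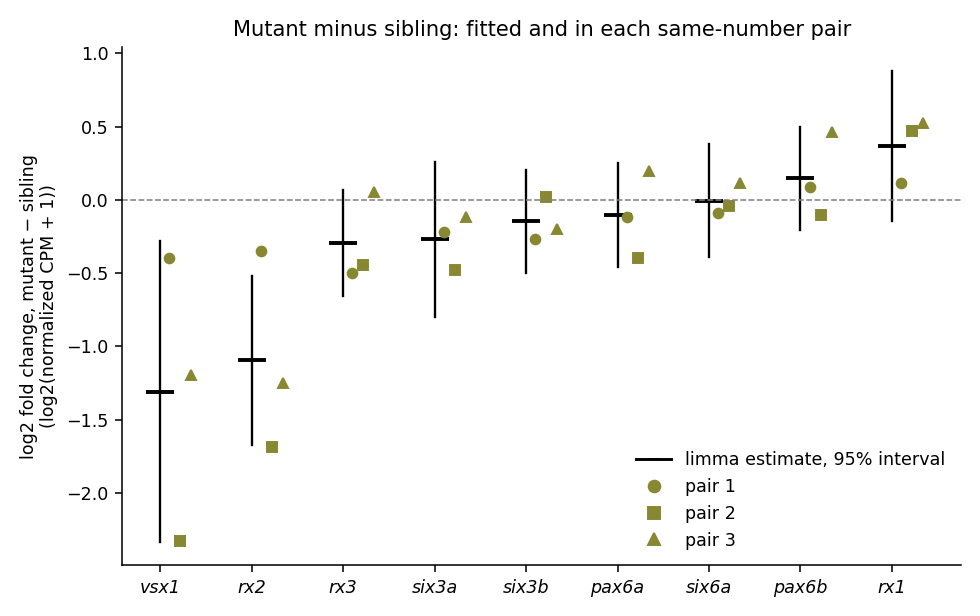
Log2 fold change of each gene, mutant minus sibling on the log2(normalized CPM + 1) scale (vertical axis), with the limma estimate and its 95% interval (black) and the difference within each same-number pair (symbols). The intervals of *vsx1* and *rx2* lie below 0 and those of the other 7 genes include 0. Pair 1 is nearest to 0 for *vsx1* and *rx2*.

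The sine oculis homologs differed less between the groups. *six3a*, a forebrain and eye factor, was at 19.52, 15.78 and 11.68 in siblings and at 16.64, 11.07 and 10.71 in mutants. Replicate 3 was the lowest library in both groups, and mutant replicate 1 exceeded 2 of the 3 siblings. The log2 fold change was -0.27 (95% interval -0.80 to 0.26, limma adjusted p = 0.550), and it ranged from -0.11 without sibling replicate 1 to -0.46 without mutant replicate 1. Its paralog *six3b* was at 23.35, 21.83 and 27.36 in siblings and at 19.24, 22.16 and 23.77 in mutants (log2 fold change -0.15, 95% interval -0.50 to 0.20, limma adjusted p = 0.630). Without sibling replicate 3 the *six3b* value was -0.058.

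*six6a*, a factor of the retina and hypothalamus, was at 3.89, 2.81 and 2.60 in siblings and at 3.59, 2.71 and 2.9 in mutants. Replicate 1 was the highest library of both groups. The log2 fold change was -0.00 (SE 0.17, 95% interval -0.39 to 0.38, limma adjusted p = 0.992), so that on this scale the interval holds changes of up to about 0.39 in either direction. The *six3a* share of the *six3a* and *six3b* reads ranged from 29.9% to 45.5% in siblings and from 31.1% to 46.4% in mutants. Replicate 1 had the highest share in both groups. The summed level of *six3a* and *six3b* was 42.87, 37.61 and 39.04 in siblings and 35.88, 33.23 and 34.48 in mutants, so that the mutants lay below all siblings for the sum and not for either gene alone. Among single genes 13.8% of all had mutants below all siblings. The summed levels of the *rx* genes and of *pax6a* and *pax6b* overlapped. No counting interval was computed for the sums.

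Neither paired box gene passed the threshold. *pax6a* was at 81.84, 82.48 and 69.72 in siblings and at 75.31, 62.39 and 80.27 in mutants, and the groups overlapped (log2 fold change -0.11, 95% interval -0.46 to 0.25, limma adjusted p = 0.748). *pax6b* was at 47.73, 46.85 and 40.65 in siblings and at 50.91, 43.46 and 56.44 in mutants, and these too overlapped (0.15, 95% interval -0.20 to 0.50, limma adjusted p = 0.627). Their summed level was 123.1 ± 11.0 in siblings and 122.9 ± 15.7 in mutants (SD, n = 3).

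The ratio of *pax6a* to *pax6b* was 1.71, 1.76 and 1.72 in siblings and 1.48, 1.44 and 1.42 in mutants. The groups did not overlap, and the ratio was 1.73 ± 0.0263 in siblings and 1.45 ± 0.0298 in mutants (SD, n = 3), a difference larger than either SD. In reads, *pax6a* made up 63.2%, 63.8% and 63.2% of the pair in siblings and 59.7%, 58.9% and 58.7% in mutants. Mutant replicate 1, which resembled the siblings in *vsx1*, lay here with the other mutants. Its exact 95% interval was 58.2% to 61.1%. The intervals were 61.7% to 64.6% in sibling replicate 1, 62.4% to 65.1% in sibling replicate 2 and 61.1% to 65.2% in sibling replicate 3, the sibling library of least depth, whose lower limit met the upper limit of mutant replicate 1.

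Between *rx1* and *rx2*, *rx1* and *rx3*, *six3b* and *six3a*, and *pax6a* and *pax6b*, 3 of 4 ratios did not overlap between groups. The *rx1* to *rx3* ratio was 5.11, 6.01 and 8.27 in siblings and 8.69, 12.6 and 11.4 in mutants. Its nearest libraries, sibling replicate 3 and mutant replicate 1, stood on about 66 and 91 *rx3* reads. No counting interval was computed for this ratio, and no share over other gene pairs for any of the 4. The exact two-sided permutation p was 0.10 for each of the 3 ratios that did not overlap, the smallest that 3 libraries against 3 can give. After Benjamini-Hochberg adjustment over the 4 ratios it was 0.133. Any ratio whose groups do not overlap gives 0.10 in this test, so the test adds nothing to the non-overlap. The *six3b* to *six3a* ratio overlapped (exact permutation p = 1.0). These ratios were chosen after the values had been seen. The *rx1* to *rx2* and *rx1* to *rx3* ratios share *rx1*, so they do not count as separate results. Paralogs can share reads, and no source used here says how reads matching both genes were assigned, so the ratios and sums may both depend on that handling.

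**Figure D3:**
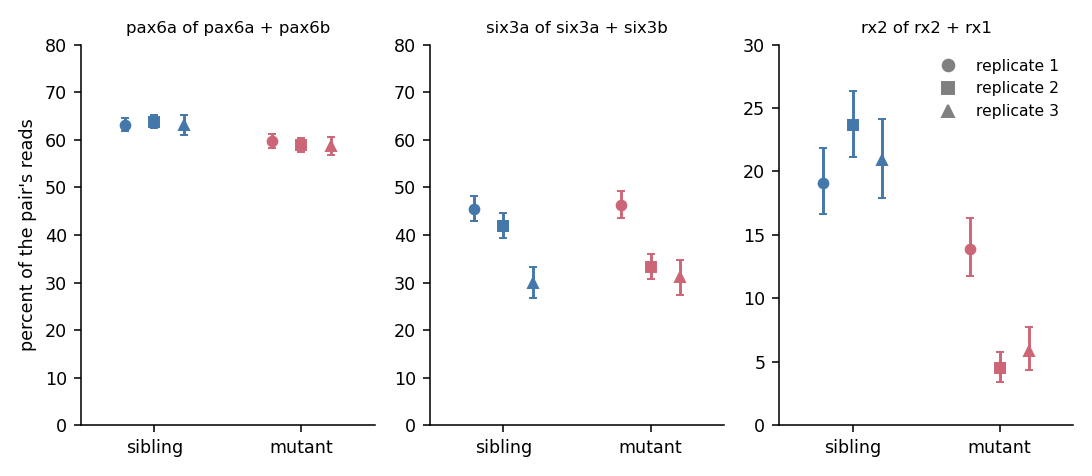
Share of the reads of a paralog pair that belong to the first gene (vertical axis, percent; 0 to 80 in the left and middle panels, 0 to 30 in the right panel) in each library, with exact 95% binomial intervals for counting error. For *pax6a* the 3 mutants (58.7% to 59.7%) lie below the 3 siblings (63.2% to 63.8%), for *six3a* the groups overlap, and for *rx2* the 3 mutants lie below the siblings with replicate 1 nearest.

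The 9 genes did not share 1 pattern across the 6 libraries. The Pearson correlation of log2 values between *rx2* and *vsx1* was 0.88, between *vsx1* and *six3a* 0.81, and between *rx1* and *six3a* -0.90, all described over the same 6 libraries. The mean centred log2 level of the 9 was 0.21, 0.16 and 0.08 in siblings and 0.02, -0.39 and -0.08 in mutants, so mutant replicate 2 was the lowest. In that library *vsx1* and *rx2* lay furthest below their own means and made up most of the low value. Among 13045 other genes with a mean of at least 5, the 5 most like this mean were *ctcf*, *zgc:92873*, *itgbl1*, *ctnnbip1* and *SRBD1*, with Pearson r of 0.994 to 0.995 over the 6 libraries. With 13045 genes searched over 6 libraries, high r values can arise from the search alone. Likeness to the mean is also not likeness to each of the 9. *ctcf*, a chromatin architecture protein, was at 294.45, 281.10 and 275.98 in siblings and 267.49, 225.68 and 259.92 in mutants. *ctnnbip1*, an inhibitor of beta-catenin, was at 80.34, 78.59 and 69.26 in siblings and 60.22, 35.08 and 52.24 in mutants.

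Other eye genes were examined in lists. None of these 5 lists (eye field, neurogenesis, photoreceptor, pigment epithelium and lens) had a member past the threshold in the fit without the block. Among 27 other factors of the eye field and optic cup, 18 log2 fold changes were negative and the median was -0.26. At an unadjusted p under 0.05, 4 were lower and 2 higher, against 10.7% of all genes lower and 10.2% higher. With the replicate block 5 fell and 0 rose, against 6.87% of all genes that fell and 6.85% that rose. The 5 included *foxd1*, a factor of the temporal retina, at 37.19, 33.42 and 35.15 in siblings and 24.02, 15.98 and 21.31 in mutants, and *mab21l1*, a gene of eye and lens development, at 124.96, 107.36 and 92.67 against 86.63, 41.47 and 50.71. Both had groups that did not overlap, and both missed the threshold without the block (limma adjusted p = 0.0690 and 0.115).

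Of 26 genes listed as retinal neurogenesis factors 22 had negative log2 fold changes, with a median of -0.23, and 0 passed (4 lower and 1 higher unadjusted). The list is not particular to the retina. It shares *barhl2* and *neurod6b* with the forebrain list below, *barhl1a* with the midbrain and hindbrain list and *olig2* with the spinal cord list. Over all genes 10.7% were lower and 10.2% higher unadjusted. With the block 7 fell and 1 rose, against 6.87% of all genes that fell and 6.85% that rose. Of these, *olig2*, a factor of motor neuron and oligodendrocyte progenitors, was at 27.66, 25.02 and 27.10 in siblings and 21.57, 12.75 and 18.58 in mutants, and *barhl1b*, a neural homeobox gene, at 11.77, 10.94 and 9.09 against 9.75, 3.26 and 3.82. *atoh7*, the factor required for retinal ganglion cells, was at 16.72, 16.40 and 5.76 in siblings and 11.47, 2.74 and 2.57 in mutants (limma adjusted p = 0.246 without the block and 0.0244 with it, named after its values were seen). Its sibling replicate 3 was well below the other siblings.

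Photoreceptor genes went the other way. Of 34 listed 25 were measured, with *rho* among those that were not. Of the 25 measured, 5 had negative log2 fold changes, with a median of 0.26, and 0 passed (7 higher and 1 lower unadjusted). Over all genes 10.2% were higher and 10.7% lower unadjusted. With the block 5 rose and 0 fell, against 6.85% of all genes that rose and 6.87% that fell. *rbp3*, the interphotoreceptor retinoid-binding protein, was at 1.15, 1.32 and 0.73 in siblings and 1.96, 2.51 and 2.4 in mutants. *rcvrn3*, a recoverin, was at 2.16, 2.3 and 2.60 against 3.56, 5.89 and 4.15. *exorh*, the opsin of the pineal organ and not of the retina, was at 7.89, 6.46 and 5.35 against 9.60, 11.76 and 8.91 and was among the 5 that rose with the block (limma adjusted p = 0.0385; named after its values were seen). The summed level of the list, which includes *exorh*, was 29.4 to 34.9 in siblings and 43.0 to 51.1 in mutants and did not overlap. Levels of single genes could be low, and *rbp3* stood on about 14 to 97 reads per library.

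Genes of the retinal pigment epithelium, many of which melanophores of the skin also use, had a median of -0.08 over 17 genes, with 5 lower and 1 higher at an unadjusted p under 0.05. *tyrp1a*, of melanin synthesis, was at 160.51, 126.14 and 137.94 in siblings and 120.35, 79.73 and 82.67 in mutants, while the transcriptional repressor gene *bhlhe40* was at 91.16, 91.21 and 85.35 against 117.72, 150.65 and 122.61. With the block 2 fell and 1 rose. For this list and the next, the shares over all genes were 6.87% lower and 6.85% higher with the block. Unadjusted they were 10.7% lower and 10.2% higher. Of 28 lens genes 26 had negative log2 fold changes, with a median of -1.13. Without the block 0 passed (14 lower and 0 higher unadjusted), and with it 22 fell. *mipa*, the lens water channel, was at 101.30, 97.91 and 99.31 in siblings and 73.65, 36.35 and 40.11 in mutants, and *grifin*, a lens galectin, at 4.69, 3.84 and 3.63 against 2.34, 0.28 and 0.93.

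**Figure D4:**
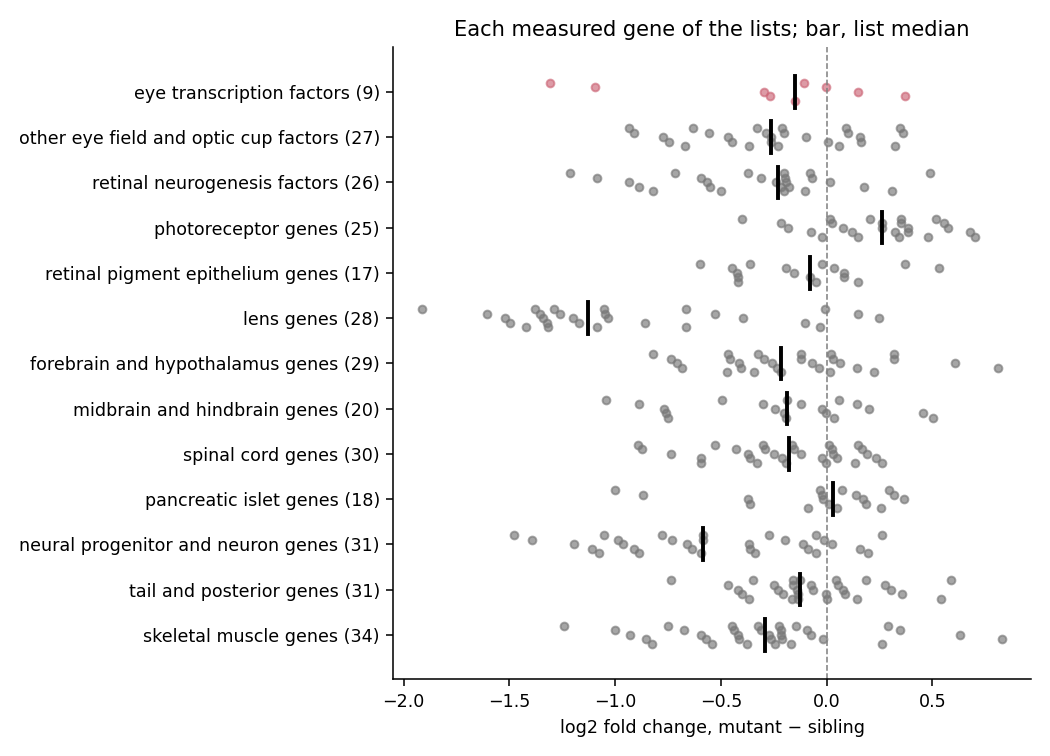
Log2 fold change, mutant minus sibling (horizontal axis), of each measured gene in the 9 eye transcription factors and in 12 other lists, with the number of genes in parentheses and the median of each list as a black bar. The lens list has the lowest median (-1.13), the photoreceptor list the highest (0.26), and the 9 factors a median of -0.15 with *vsx1* and *rx2* apart from the rest.

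Summed marker levels are given here beside *vsx1* and *rx2*, library by library. The summed lens level was 3795, 3268 and 2524 in siblings and 3036, 1079 and 829 in mutants, so mutant replicate 1 lay within the sibling range and replicates 2 and 3 were at 33.7% and 26.0% of the sibling mean. The forebrain and hypothalamus sum over 29 genes was 559 to 672 in siblings and 598, 475 and 495 in mutants. The spinal cord sum over 30 genes was 622 to 679 in siblings and 602, 504 and 598 in mutants. The neural progenitor and neuron sum over 31 genes was 4178 to 4544 against 3695, 2570 and 2810, and the skeletal muscle sum over 34 genes 95578 to 106357 against 77887, 68932 and 85305. The tail and posterior sum over 31 genes was 232, 218 and 372 in siblings and 189, 235 and 356 in mutants. Replicate 3 was its highest library in both groups. In mutant replicates 1, 2 and 3 the posterior gene *hoxc13a* was at 7.24, 16.06 and 17.27 and the lens gene *crybb1* at 468.00, 180.90 and 121.41. In sibling replicates 1, 2 and 3 *hoxc13a* was at 8.89, 11.56 and 16.51, so its level rose with the replicate number in both groups. Of the 31 tail and posterior genes 19 had negative log2 fold changes, with a median of -0.13. The part of these markers in the *vsx1* and *rx2* values was not tested. None of the genes measured in these lists was at 0 in all libraries. Listed genes absent from the deposited values were not counted as measured. Which genes the submitters filtered out is not stated, so this does not show that all listed markers were expressed.

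**Figure D5:**
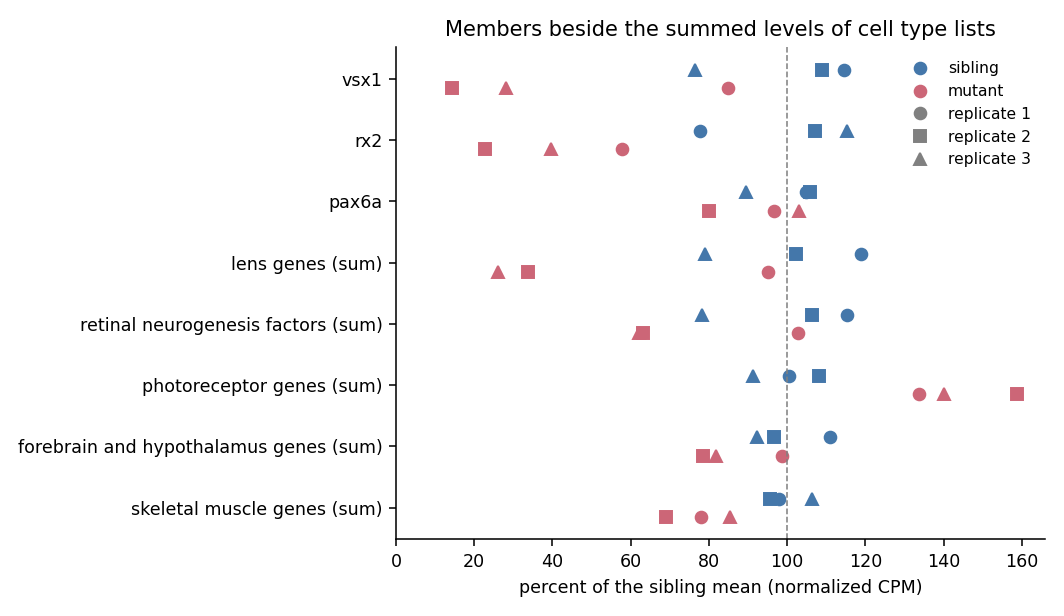
Levels of *vsx1*, *rx2* and *pax6a* and summed levels of 5 lists in each library, as percent of the sibling mean (horizontal axis, normalized CPM, starting at 0), with colour for the group and symbols for the replicate number. Mutant replicates 2 and 3 are low for *vsx1* (14.3% and 28.2%), *rx2* (22.7% and 39.6%) and the lens sum (33.7% and 26.0%), while the photoreceptor sum is above the siblings in all 3 mutants.

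Single genes of the forebrain, midbrain and hindbrain lists are given next, and none passed the threshold without the block. In the forebrain and hypothalamus list *foxg1a* was at 22.51, 15.64 and 17.05 in mutants, below all siblings (limma adjusted p = 0.0820), and *sim1a*, a hypothalamic factor, was at 10.62, 10.37 and 14.74 in siblings and 17.75, 23.16 and 23.77 in mutants (limma adjusted p = 0.0716). With the block 5 of 29 fell and 2 rose, against 6.87% of all genes that fell and 6.85% that rose. At an unadjusted p under 0.05, 4 of the 29 were lower and 3 higher, against 10.7% and 10.2% of all genes. In the midbrain and hindbrain list 0 of 20 passed (5 lower and 2 higher unadjusted) and 6 fell with the block, among them *atoh1a*, of the rhombic lip, at 24.90, 26.12 and 25.96 against 16.55, 9.13 and 11.15 (limma adjusted p = 0.0506), and *en2b*, of the midbrain-hindbrain boundary, at 15.11, 14.91 and 18.12 against 9.84, 7.89 and 9.45.

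Genes of the spinal cord, where *vsx1*, *pax6a* and *pax6b* are also used, had a median of -0.18 over 30 genes. Of these 0 passed (5 lower and 0 higher unadjusted), and 6 fell with the block. Over all genes 10.7% were lower and 10.2% higher unadjusted, and 6.87% fell and 6.85% rose with the block. *dbx1a*, of spinal and hindbrain progenitors, was at 45.42, 43.74 and 42.31 in siblings and 27.35, 15.25 and 29.72 in mutants, and *nkx2.2b*, of the ventral neural tube, at 6.28, 5.70 and 7.42 against 3.91, 2.95 and 5.14. Islet genes, of the endocrine cells that use *pax6b*, had a median of 0.03 over 18 genes. The 2 that fell with the block, *insm1b* (133.22, 101.17 and 107.10 against 93.73, 49.43 and 50.16) and *insm1a* (184.80, 151.07 and 118.73 against 136.96, 51.63 and 57.48), are neuroendocrine zinc finger genes that differentiating neurons also use.

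One gene of all these lists passed without the block, the neural factor gene *pou3f2b*, at 107.17, 98.66 and 101.60 in siblings and 64.19, 35.52 and 45.24 in mutants (log2 fold change -1.11, limma adjusted p = 0.0469). That call ended with a pseudocount of 0.1 and without any of sibling replicates 1, 2 and 3 or mutant replicates 2 and 3, settings in which 0 genes of these lists passed with limma (49 to 89 at an unadjusted p under 0.05). In its list of 31 neural progenitor and neuron genes 17 fell with the block, 27 log2 fold changes were negative, and the median was -0.58. The pan-neuronal gene *elavl3* overlapped, at 348.85, 338.05 and 343.00 in siblings and 362.65, 257.84 and 245.11 in mutants. Of 31 tail and posterior genes 1 fell and 1 rose with the block, and 0 passed without it (2 lower and 0 higher unadjusted). Over all genes 10.7% were lower and 10.2% higher unadjusted. The gene that fell was *hoxa13b*, at 3.31, 3.05 and 3.79 in siblings and 1.93, 1.5 and 1.48 in mutants, and the gene that rose was *wnt3a*, named after its values were seen, at 2.19, 3.43 and 2.02 against 4.0, 6.67 and 2.79. *hoxa11a*, at 0.98, 1.40 and 1.61 against 0.88, 0.34 and 0.87, did not pass with the block (limma adjusted p = 0.0894). Of 34 muscle genes 10 fell and 2 rose with the block, against 6.87% of all genes that fell and 6.85% that rose. Among the 10 were *pvalb1*, at 1801.17, 1722.24 and 1692.18 against 1065.01, 882.67 and 1176.12, and *ckmb*, at 5404.67, 5556.40 and 4990.63 against 3686.97, 2938.28 and 3413.90.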

How the data were processed

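Gene expression was measured by RNA-seq. Each deposited value is a signal scaled per library, headed ncpm per the file headers and read here as normalized CPM, with column sums near those of CPM. The tools STAR, featureCounts, fastp and edgeR and the build GRCz11 come from the submitters' processing notes, which give neither versions nor roles. No source used here states the strand setting, how shared reads were handled or which genes were filtered, so overlapping and antisense genes cannot be told apart. Columns were matched to samples by group and replicate number. Depth came from the step between values: those up to 20 were whole multiples of 1 read within 0.0055 normalized CPM. Counting intervals use these reads and cover counting error only.

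No filter was applied. The test was limma (version 3.58.1, R 4.3.3) on log2 of the signal plus 1. The fit without the block was first run on simulated data with the same variance for all genes and independent libraries. The fit with the block was not simulated. Adjustment was by Benjamini-Hochberg over 21769 genes. Deviations from the group means correlated between same-number libraries (r of 0.45, 0.43 and 0.57). The labels do not say what a replicate number marks, so the main fit had no block and the block was an alternative. Sibling and mutant replicate 3 had 20.0 and 19.5 M reads, against 32.1 to 37.7 M in the other libraries. The part of depth in the correlation was not tested. Permutation tests used scipy 1.17.1. The members, lists and tests were chosen with earlier results of these data known. Named genes are the 9 members, *dhx38*, 5 fixed markers, of each list the called genes (at most 4) or otherwise the 2 with the smallest p, and the 5 genes most like the members. A list entry with several symbols used the first in the table and its ID of highest mean. The planned count test was not run, because rounding of the values amounts to 0.101 to 0.213 of a read, and the columns were not taken as counts. The reads behind the intervals are therefore approximate. Alternatives were the block, a pseudocount of 0.1, a filter at a mean of 1, centring on library medians, a variance trend and leaving out libraries.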

Additional observations from a re-analysis of the deposited data

How the results depend on the processing

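The 9 eye factors gave 0 calls in most settings and 2 (*rx2* and *vsx1*, both lower) with the replicate block, with a variance trend added to that block (a pairing of choices made after seeing the data), and without mutant replicate 1. Leaving out single libraries or both libraries of a number gave 0 to 2 member calls, 0 to 1731 calls over all genes, 0 to 68 over the other lists, and 1 to 5 members whose groups did not overlap, beside 29.9% to 55.4% of all genes (5 of 9 members beside 55.4% without the libraries of replicate 3). The cause was not tested. Over all genes, 370 calls became 2986 with the block, 205 with a pseudocount of 0.1, 169 with both and 3800 with the block and a trend. Over the other lists, 1 call became 92, 0, 0 and 103 in those settings, 2 with centring and 6 with a trend. Without the libraries of replicate 3, limma called 0 genes over the table, of which 4236 had an unadjusted p under 0.05.

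The direction of *vsx1*, *rx1*, *rx2*, *rx3*, *six3a* and *six3b* was kept in 16 of 16 alternatives. The block, the filter and the variance trend left each log2 fold change as it was, so they could not change a direction. The same held for adding the block to the smaller pseudocount. Only the smaller pseudocount, centring and leaving out libraries could change a direction. The log2 fold change of *six6a* became 0.015 with centring and ranged from -0.095 to 0.13 when libraries were left out. That of *pax6a* ranged from -0.258 to 0.041 and that of *pax6b* from -0.0074 to 0.277 in those settings, and none of these passed. Library medians differed by 0.04 on the log2 scale. The block changed no other call among the 9. The planned count test was not run. Depth limits *vsx1*, *rx2*, *rx3* and *six6a*, at 47 to 438 reads per library.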
